A study of Mus musculus with 8 samples.

Results

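The 7 genes described here are those of the fibroblast growth factor (FGF) receptors Fgfr1, Fgfr2, Fgfr3 and Fgfr4, the receptor-like gene Fgfrl1, the klotho family gene Lctl and the receptor adaptor Frs2. They were chosen by name, and every peak of open chromatin that overlapped the RefSeq body of 1 of them, or the 50 kb on either side, was taken. Peaks came from the lens epithelium and lens fibers of mouse embryos (E14.5) and newborn pups (P0.5). These windows held 177 of the 99921 peaks on chromosomes in embryonic epithelium, 263 of 123686 in embryonic fibers, 92 of 58502 in newborn epithelium and 129 of 62922 in newborn fibers. Merged across the lists, the peaks made 319 regions of the 185271 found genome-wide, and each region fell in 1 window only.

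Open chromatin was mapped by ATAC-seq, in which a transposase cuts accessible DNA and inserts sequencing adapters, in lens cells of CD1 mice. Lenses were micro-dissected into epithelium and fibers in embryos at E14.5 and in newborn pups at P0.5, which gave 4 groups of 2 libraries. The labels name no allele and no treatment beside the strain. By the study's methods, each library pooled lenses of more than 1 animal, and more cells went into the newborn than the embryonic reactions. The peak lists were called on the pooled libraries, so each group gives 1 value and no spread between libraries, and no difference below has a test. In bulk tissue, DNA that is open in fewer cells and DNA that is less open in each cell cannot be told apart. Each peak is placed by its percent rank, the rank of its fold enrichment over the background used in peak calling (1 for the strongest peak) as a percent of the length of its list, so a small percent means a strong peak. Fold enrichment takes few distinct values (102 in newborn fibers, where 22.1% of the peaks share 1 value, to 506 in embryonic fibers), and tied peaks share a rank. Each fold value of a list goes with 1 p value, so both give the same ranks. A percent rank also depends on how long a list is, and comparisons between lists are therefore given again with each list cut to the 58592 strongest peaks (equal numbers below). The lists ran from 58592 to 123743 peaks, embryonic fibers had the longest list and the widest peaks (median 298 bp, against 185 to 226 bp in the others), and 48.9% of the newborn fiber peaks passed a q value of 0.001, against 80.5 to 87.9% in the other lists.

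FGFs bind receptor tyrosine kinases at the cell surface together with heparan sulfate, and for the hormone-like FGFs together with a klotho protein. The activated receptor phosphorylates the docking protein Frs2, which brings in Grb2, Gab1 and Shp2 (the product of Ptpn11) and starts the Ras and ERK cascade. In the lens, FGF signaling is known as the principal inducer of fiber cell differentiation, in which epithelial cells at the equator leave the cell cycle, elongate and make crystallins. Fgfrl1 resembles the receptors outside the cell but lacks the kinase domain, and Lctl encodes a membrane protein of the klotho family.

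The labelled tissues were checked on the promoters of marker genes. All 7 fiber markers (Crybb1, Cryba1, Cryga, Mip, Lim2, Bfsp1 and Bfsp2) stood nearer the top in fibers at E14.5. In newborns 6 did so, and the seventh was called in fibers only. Their median percent rank was 2.13 in fibers against 10.5 in epithelium at E14.5, and 10.8 against 24.9 at P0.5. Of all genes called in both tissues, 73.0% stood nearer the top in embryonic fibers and 55.1% in newborn fibers. With equal numbers 6 markers were called in both tissues of either stage, each nearer the top in fibers, and 1 in 1 tissue only. The study itself describes higher fiber signals at Crybb1, Cryga and Mip in these libraries, so these genes are no independent check. The 4 epithelial markers did not separate the tissues: fibers had the better rank for 3 of them at E14.5 and for 2 at P0.5 (2 and 0 with equal numbers, 2 and 2 if peaks tied at that cut are kept), among the 3 Pax6 at 0.483% in embryonic fibers and 3.75% in embryonic epithelium. Promoter peaks of genes of other cells were present at low rank for 2 or 3 of 3 vascular genes in every list (medians 19.8 to 36.2%) and for 3, 3, 2 and 0 of 3 retinal genes (in the order embryonic epithelium, embryonic fibers, newborn epithelium, newborn fibers). Of 3 leukocyte genes, Ptprc and Aif1 had no promoter peak in any list and Cd68 had one in the embryonic lists, at 82.8% in epithelium and 44.3% in fibers. Of 3 genes of the corneal epithelium, Krt12 and Krt5 had none and Aldh3a1 had one in newborn epithelium, at 91.6%.

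The sequences on which the description turns are given first, all on the GRCm38 (mm10) assembly, written on the strand of the gene from 5′ to 3′. Capitals mark matches, on either strand, to the letters searched for factors of lens biology: TGCTGA (the core of Maf binding sites), ATTGTT (Sox), GGAATG (Tead), TGANTCA (AP-1), TAATCC (Pitx) and CCGGAA (Ets). The Maf and AP-1 letters can share the bases TGA. The promoters are RefSeq entries from 250 bases before to 50 after the start site, and the others are the 200 bases around the summit of the best-ranked peak. The first 3 are the promoters that stand apart: Lctl, the weakest of the 7, at chr9:64116897-64117196, Fgfr4, which had no call in newborn fibers, at chr13:55152568-55152867, and Fgfrl1, the strongest, at chr5:108693979-108694278.
Lctl promoter: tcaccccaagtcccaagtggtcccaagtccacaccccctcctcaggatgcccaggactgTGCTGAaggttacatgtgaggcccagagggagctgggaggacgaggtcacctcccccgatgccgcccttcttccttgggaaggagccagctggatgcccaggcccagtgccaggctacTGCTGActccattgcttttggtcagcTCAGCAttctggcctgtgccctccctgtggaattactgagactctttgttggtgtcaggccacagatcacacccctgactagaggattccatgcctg
Fgfr4 promoter: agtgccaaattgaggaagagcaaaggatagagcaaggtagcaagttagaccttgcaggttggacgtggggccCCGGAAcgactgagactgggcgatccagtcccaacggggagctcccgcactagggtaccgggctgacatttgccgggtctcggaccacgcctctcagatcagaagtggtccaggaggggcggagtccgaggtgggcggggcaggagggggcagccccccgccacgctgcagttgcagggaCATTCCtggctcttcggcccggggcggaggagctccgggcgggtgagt
Fgfrl1 promoter: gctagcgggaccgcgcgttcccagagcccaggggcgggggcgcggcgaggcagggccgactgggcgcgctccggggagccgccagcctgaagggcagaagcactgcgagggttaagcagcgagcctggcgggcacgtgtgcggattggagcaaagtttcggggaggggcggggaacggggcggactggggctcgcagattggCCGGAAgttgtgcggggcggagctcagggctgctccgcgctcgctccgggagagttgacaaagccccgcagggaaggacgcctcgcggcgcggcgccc
The 300 bases of the Lctl promoter hold 3 CpG dinucleotides and 3 matches to the Maf letters, which occur at least 3 times in 0.225% of the 32851 mouse promoters in the RefSeq table and at least once in 19.5%. The Fgfrl1 promoter holds 37 CpG and the Fgfr4 promoter 20, against a median of 7 over all promoters. Each of these CpG-rich promoters has 1 match to the Ets letters (found in 14.9% of all promoters), and that of Fgfr4 also has 1 to the Tead letters (14.7%).

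The next sequence is shown because the accessible part of the Fgfr2 promoter lay away from the annotated start. Its summit was 480 bases inside the gene, at chr7:130266228-130266427, and its peak in embryonic fibers reached 15 bases beyond the start, whereas the 300 bases at the start itself have 4 CpG.
Fgfr2 promoter summit: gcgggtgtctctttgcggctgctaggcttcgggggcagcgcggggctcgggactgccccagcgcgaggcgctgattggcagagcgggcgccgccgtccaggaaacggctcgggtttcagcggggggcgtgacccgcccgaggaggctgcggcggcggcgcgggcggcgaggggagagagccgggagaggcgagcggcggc
These 200 bases hold 30 CpG, a GC content of 77.5% and none of the motifs searched. The last 4 sequences are summits of strong regions away from a curated start site: 26.1 kb upstream of Fgfr3 at chr5:33695517-33695716, 37.6 kb from the start of Fgfr4 at chr13:55190278-55190477, and introns of Frs2 (53.4 kb from the start, chr10:117095008-117095207) and Fgfr2 (50.8 kb, chr7:130215879-130216078).
Fgfr3 -26.1 kb: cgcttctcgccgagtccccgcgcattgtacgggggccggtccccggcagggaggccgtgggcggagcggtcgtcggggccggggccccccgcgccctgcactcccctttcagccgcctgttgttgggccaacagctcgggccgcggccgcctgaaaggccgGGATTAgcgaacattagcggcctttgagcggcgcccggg
Fgfr4 +37.6 kb: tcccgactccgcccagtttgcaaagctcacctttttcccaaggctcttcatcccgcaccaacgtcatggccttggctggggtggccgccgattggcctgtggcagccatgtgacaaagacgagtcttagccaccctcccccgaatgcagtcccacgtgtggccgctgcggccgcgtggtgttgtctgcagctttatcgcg
Frs2 +53.4 kb: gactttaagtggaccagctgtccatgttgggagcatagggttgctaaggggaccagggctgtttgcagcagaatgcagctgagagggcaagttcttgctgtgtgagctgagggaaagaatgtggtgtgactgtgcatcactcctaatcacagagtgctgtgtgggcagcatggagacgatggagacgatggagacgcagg
Fgfr2 +50.8 kb: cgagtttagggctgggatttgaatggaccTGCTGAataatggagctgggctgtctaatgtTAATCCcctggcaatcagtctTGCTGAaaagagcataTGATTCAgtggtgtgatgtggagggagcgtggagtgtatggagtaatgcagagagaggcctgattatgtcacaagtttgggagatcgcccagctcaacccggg
The first pair of these are rich in CpG (27 and 15 in 200 bases), and the intronic summits of Frs2 and Fgfr2 hold 3 and 4. The Fgfr2 intronic summit carries 2 matches to the Maf letters, 1 to AP-1 and 1 to Pitx, the Fgfr3 summit 1 to Pitx, and the Frs2 and Fgfr4 summits none.

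The promoters were compared first, to ask which of the genes are open at their start in each tissue. All 7 had a peak within 2 kb of a curated start in embryonic epithelium, embryonic fibers and newborn epithelium, and 6 had one in newborn fibers. Of all 21000 protein-coding genes, 70.3%, 71.2%, 67.0% and 64.6% had a promoter peak in embryonic epithelium, embryonic fibers, newborn epithelium and newborn fibers. A promoter peak was thus common, and the presence of one sets the 7 genes apart little. The median percent rank of their promoter peaks was 5.56, 3.50, 13.1 and 5.70 in the same order, and that of all genes with a promoter peak was 7.73, 6.13, 13.1 and 10.8.

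Fgfr1, Fgfr2 and Fgfr3 are known to act together in fiber cell differentiation. Fgfr1 (chr8:25518759-25575718, plus strand) stood at 5.56% in embryonic epithelium, 3.35% in embryonic fibers, 13.1% in newborn epithelium and 10.8% in newborn fibers. Fgfr2 (chr7:130162451-130266808, minus strand) stood at 3.79, 3.16, 12.0 and 6.0% in the same order. Fgfr3 (chr5:33721724-33737068, plus strand) stood at 9.09, 4.34, 18.4 and 5.40%. In the full lists fibers were nearer the top than epithelium at both stages for all 3, with the widest gap at Fgfr3. With equal numbers this turned for Fgfr2 at E14.5, which stood at 6.47% in epithelium and 6.68% in fibers, and at a q value under 0.001 it turned for Fgfr1 at P0.5, at 15.1% and 22.2%. Fgfr4 (chr13:55152818-55168759, plus strand), a receptor best known from liver and muscle, was the weakest of the 4, at 31.3% in embryonic epithelium, 18.8% in embryonic fibers and 35.2% in newborn epithelium, and had no call in newborn fibers. Between 80.1 and 86.0% of the genes with a promoter peak ranked above it in the 3 lists that called it.

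Fgfrl1 (chr5:108694229-108706950, plus strand) had the strongest promoter of the 7 in every list, at 2.77% in embryonic epithelium, 0.707% in embryonic fibers, 3.86% in newborn epithelium and 3.30% in newborn fibers. The fold enrichments behind these ranks, which are not comparable between lists, were 60.6, 99.6, 27.6 and 13.9. In embryonic fibers 6.58% of the 14951 genes with a promoter peak ranked above it, against 20.4% of 14760 in embryonic epithelium. The promoter of the long noncoding RNA gene Gm42151 lies in the same peak, which cannot be assigned to either start. Frs2 (chr10:117070127-117148474, minus strand) stood close to Fgfr2, at 4.01, 3.50, 11.1 and 5.40%.

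Lctl (chr9:64117123-64138118, plus strand) had the weakest promoter peak in each list that called one. It stood at 53.2% in embryonic epithelium, 21.0% in embryonic fibers and 71.0% in newborn epithelium, in peaks of 139 to 294 bp whose summits lay within 75 bases of the start. In newborn fibers the start itself was not called. The peak counted there was a separate one of 108 bp with its summit at position -693 relative to the start, at 95.7% of its list and with a −log10 q of 1.33, and it was no longer called at a q value under 0.001. It is tied with other peaks at the cut for equal numbers, so that its call there depends on how ties are taken. The fold enrichments were 5.37, 10.4, 4.67 and 3.24 in the order of lists. Lctl stood nearest the top in embryonic fibers, and there 82.3% of the genes with a promoter peak ranked above it.

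**Figure D1:**
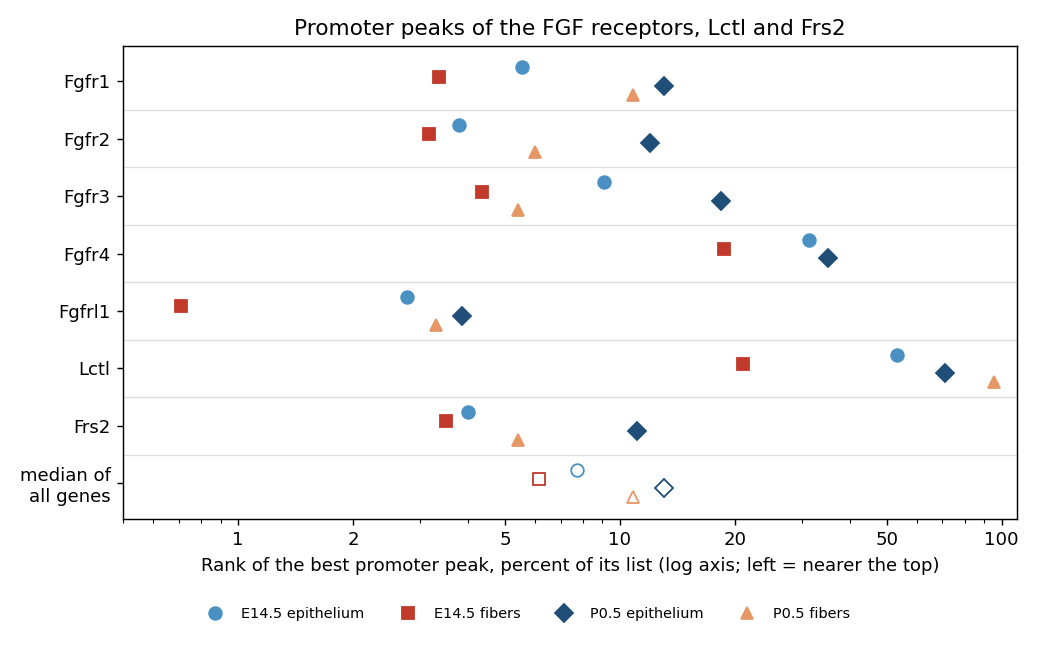
Percent rank of the best peak within 2 kb of the start site (log axis, small values are strong peaks) for the 7 genes, with 1 filled point per peak list and open points for the median of all genes with a promoter peak. Embryonic fibers (red squares) lie leftmost for each gene in these full lists, Fgfrl1 at 0.707%, and Fgfr4 has no point for newborn fibers.

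The difference between tissues was expressed as the percent rank in epithelium over that in fibers, so that values above 1 mean a stronger place in fibers. At E14.5 this ratio was 3.92 at Fgfrl1, 2.53 at Lctl, 2.09 at Fgfr3, 1.67 at Fgfr4, 1.66 at Fgfr1, 1.2 at Fgfr2 and 1.15 at Frs2. The median over 14426 genes called in both tissues was 1.29, with quartiles of 0.971 and 1.66, and 73.0% of these genes stood nearer the top in fibers. All 7 genes shared that direction in the full lists, Fgfr2 and Frs2 were below the median of all genes, and Fgfrl1 exceeded 98.8% of the genes, Lctl 94.7% and Fgfr3 89.0%. With equal numbers 5 of the 7 kept it, Fgfr2 stood at 0.970 and Frs2 at 0.925, and 54.5% of 13640 genes stood nearer the top in fibers. The places among all genes moved little, to 99.0% for Fgfrl1, 94.9% for Lctl and 89.3% for Fgfr3, whose ratios were 3.17, 2.04 and 1.69. At P0.5 the ratio was 3.41 at Fgfr3 (93.3% of 12836 genes were lower), 2.05 at Frs2, 2.0 at Fgfr2, 1.21 at Fgfr1, 1.17 at Fgfrl1 and 0.742 at Lctl, where the fiber peak is the separate upstream one, against a median of 1.09. At a q value under 0.001 the P0.5 ratio was 0.679 at Fgfr1 and 0.659 at Fgfrl1, where the median of all genes was 0.651, and 3 of 5 genes called in both tissues kept the direction, at the smaller values of 1.92 at Fgfr3, 1.15 at Frs2 and 1.13 at Fgfr2.

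Between stages, in the full lists each promoter called at both stages stood nearer the top at E14.5 in both tissues, and so did the median gene (ratios of the P0.5 to the E14.5 percent rank of 1.71 over 13853 genes in epithelium and 1.98 over 13213 in fibers). In epithelium the ratio ran from 1.12 at Fgfr4 and 1.34 at Lctl to 2.76 at Frs2 and 3.17 at Fgfr2, which exceeded 85.6% of the genes. In fibers it was 1.24 at Fgfr3, 1.54 at Frs2, 1.90 at Fgfr2, 3.23 at Fgfr1 and 4.67 at Fgfrl1, which exceeded 89.6% of the genes. Lctl is left out of the fiber values, since its newborn fiber peak is the separate upstream one, a call lost at a q value under 0.001 and, unless tied peaks were kept, with equal numbers. At that q value the fiber ratios of the other 5 genes ran from 2.05 at Fgfr3 to 7.69 at Fgfrl1, and the median gene stood at 3.19. With equal numbers the median ratio of all genes was 1.02 in epithelium and 1.03 in fibers, and the direction turned in epithelium at Fgfr4 (0.658), Lctl (0.783) and Fgfrl1 (0.815) and in fibers at Fgfr3 (0.633), Frs2 (0.786) and Fgfr2 (0.966). It stayed in epithelium at Fgfr2 (1.86), Frs2 (1.62), Fgfr1 (1.38) and Fgfr3 (1.19) and in fibers at Fgfrl1 (2.38) and Fgfr1 (1.65).

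The genes also differed in how much of their body was open. In embryonic fibers peaks covered 89.6% of the Fgfrl1 gene body and 75.9% of that of Fgfr3, where the median over 19631 protein-coding genes of at least 1 kb was 4.23% and 99.6% and 99.0% of the genes were lower. The same bodies were covered to 28.3% and 20.3% in embryonic epithelium, 13.9% and 13.2% in newborn epithelium, and 48.3% and 26.0% in newborn fibers, against medians of 2.71, 1.51 and 1.38%. Most of the open Fgfrl1 body in embryonic fibers was 1 peak of 8995 bp, and the same stretch held 6 peaks with 3704 covered bases in embryonic epithelium, 3 with 2017 in newborn epithelium and 13 with 5239 in newborn fibers. Without the first 2 kb of the gene, the embryonic fiber values were 87.7% at Fgfrl1 and 72.3% at Fgfr3, while those of newborn epithelium were 6.84% and 2.69%. With equal numbers the Fgfrl1 body was covered to 85.03% and the Fgfr3 body to 51.7% in embryonic fibers, and the Fgfrl1 body to 13.8% in embryonic epithelium, next to 13.9% in newborn epithelium. The medians of body coverage and the places among all genes, here and below, are those of whole bodies in the full lists only.

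Fgfr1 and Fgfr2 were also widely open in embryonic fibers, to 31.7% and 24.0% of their bodies, and to 9.84% and 8.41% in embryonic epithelium. With equal numbers the embryonic fiber values were 22.2% and 10.6%. At P0.5 they were covered to 4.49% and 3.84% in epithelium and to 4.89% and 2.16% in fibers. Frs2 was covered to 3.22, 9.18, 1.67 and 0.725% in the usual order of lists. Fgfr4 and Lctl were covered least in embryonic fibers among the 7 bodies: Fgfr4 ranged from 1.99 to 2.43%, and Lctl stood at 1.51% in embryonic epithelium, 1.24% in embryonic fibers, 0.724% in newborn epithelium and 0% in newborn fibers. For these 2 genes, 36.6% and 28.4% of all genes had less open bodies in embryonic fibers. At P0.5 Fgfr4 lay above the median gene, at 2.43% against 1.51% in epithelium and 1.99% against 1.38% in fibers.

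**Figure D2:**
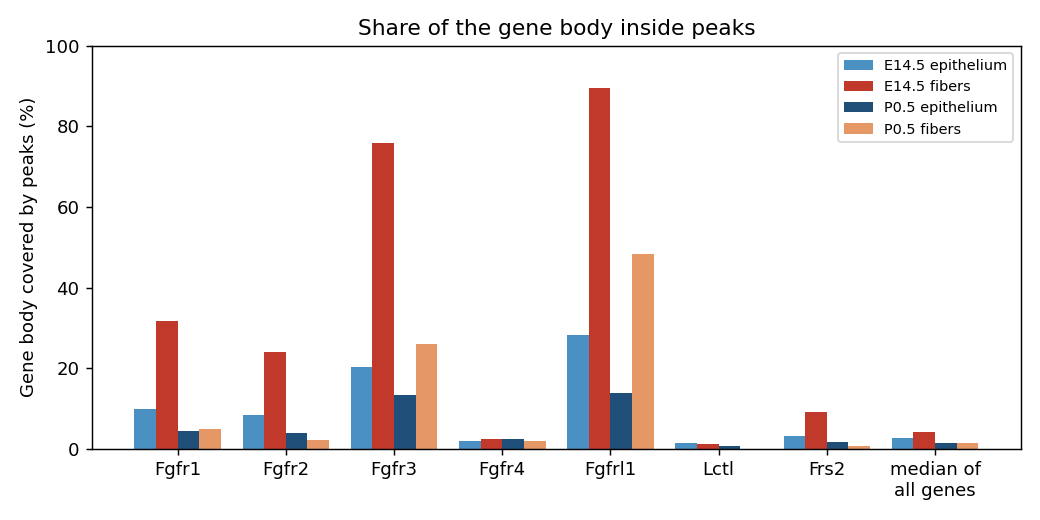
Share of each gene body inside peaks (bars from 0, in percent) in the 4 lists, with the median over all protein-coding genes of at least 1 kb at the right. Fgfrl1 and Fgfr3 reach 89.6% and 75.9% in embryonic fibers, and Fgfr4 and Lctl stay at or under 2.43% in every list.

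Regions away from the starts were described next. Of the 319 regions, 136 lay in the bodies of the 7 genes, 97 between genes, 46 in bodies of other genes, 25 at promoters of other genes and 15 at promoters of the 7 genes. Among the 25 were some of the best-ranked peaks of the windows, at the promoters of Nsd3 and Letm2 beside Fgfr1, Letm1 beside Fgfr3, Zfp346 and Nsd1 beside Fgfr4, Dgkq and Idua beside Fgfrl1, Rpl4, Zwilch and Snapc5 beside Lctl, and Cct2 beside Frs2. The windows end at a fixed distance, and the regions nearest to their 14 edges had a median best percent rank of 59.3 just inside and 54.7 just outside.

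At Fgfr3 the strongest region was not the promoter but, in 3 of the 4 lists, a domain of 9385 bp at chr5:33693901-33703285, between genes, with its summit 26.1 kb upstream of the start. It stood at 5.84% in embryonic epithelium, 1.29% in embryonic fibers, 13.1% in newborn epithelium and 3.30% in newborn fibers, and so above the Fgfr3 promoter in all 4 lists, while in newborn epithelium the Letm1 promoter region (12.01%) and a peak 47.5 kb upstream (12.5%) ranked above it. In embryonic fibers 2 peaks covered 9264 of its bases, and 10, 6 and 6 peaks covered 5595, 2506 and 3507 in embryonic epithelium, newborn epithelium and newborn fibers. A further region of 3002 bp between genes, 16.3 kb upstream, stood at 6.22, 7.44, 16.1 and 8.90%, and was the 1 described region in this window that ranked higher in epithelium than in fibers at E14.5. Its summit sequence holds 2 matches to the Tead letters and 1 to the Sox letters. Over the Fgfr3 window as a whole, peaks covered 43.4% of 115 kb in embryonic fibers and 15.3, 8.12 and 13.3% in embryonic epithelium, newborn epithelium and newborn fibers.

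At Fgfr4 the strongest region that is at no promoter lay 37.6 kb downstream of the start, beyond the end of the gene and between genes, at chr13:55189560-55190757. It stood at 3.03% in embryonic epithelium, 2.94% in embryonic fibers, 6.52% in newborn epithelium and 6.0% in newborn fibers, while the Fgfr4 promoter stood no nearer the top than 18.8% in any list. The nearest RefSeq start, curated or predicted, is that of Nsd1 at 19.4 kb from the summit.

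**Figure D3:**
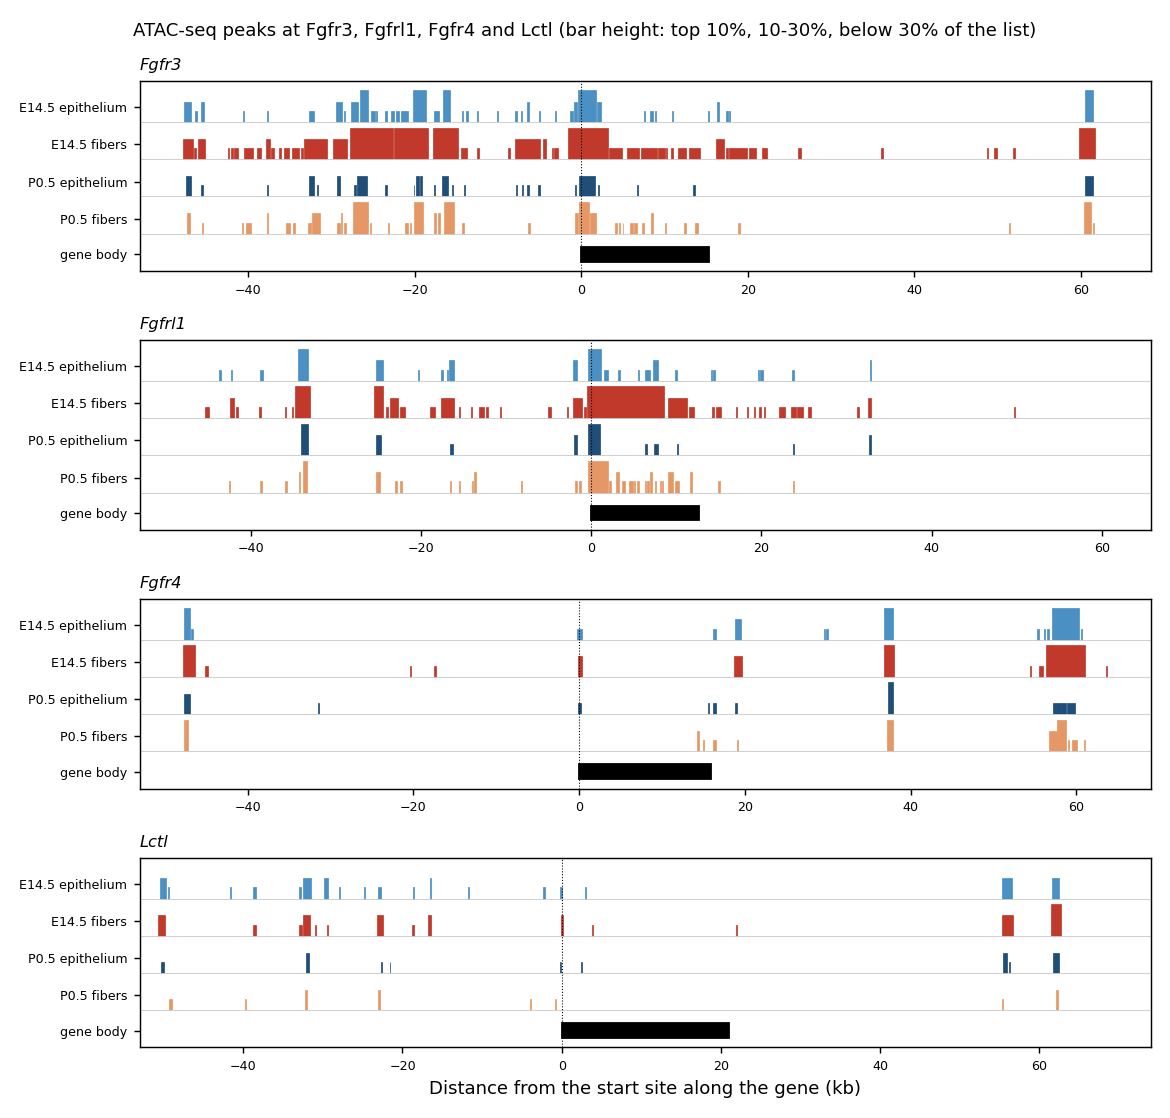
Peaks of the 4 lists around Fgfr3, Fgfrl1, Fgfr4 and Lctl against the distance from the start site in kb, with the gene body in black. Bars are drawn to the width of each peak, and taller bars are peaks nearer the top of their list. The Fgfr3 and Fgfrl1 bodies and the stretch upstream of Fgfr3 are filled in embryonic fibers, and the Lctl and Fgfr4 bodies are nearly empty in every list.

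In the introns of Fgfr2, a narrow region of 408 bp at chr7:130215846-130216253, 50.8 kb from the start, stood at 14, 5.82, 35.2 and 16.9% in embryonic epithelium, embryonic fibers, newborn epithelium and newborn fibers. Fibers ranked it nearer the top at both stages, with ratios of 1.94 at E14.5 and 1.93 at P0.5 with equal numbers. At a q value under 0.001 the ratios were 2.20 and 1.17. A region 6.6 kb upstream of Fgfr2, at chr7:130273279-130273795, stood at 12.2, 10.05, 32.7 and 13.3%.

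Frs2 had a region of 1291 bp in its intron at chr10:117094289-117095579, 53.4 kb from the start, at 7.53% in embryonic epithelium, 2.36% in embryonic fibers, 27.1% in newborn epithelium and 23.9% in newborn fibers. In embryonic fibers this region ranked above the Frs2 promoter. A second intronic region, 16.2 kb from the start at chr10:117132011-117132680, stood at 8.20, 6.31 and 45.03% and was not called in newborn fibers. At Lctl no region of the gene body was among the strongest. The best one between genes lay 50.2 kb upstream, across the window edge, at 18.6, 11.1 and 38.0%, and was also not called in newborn fibers. A region at -31.9 kb from the start, in an intron of Scarletltr and picked out after its values were seen, was called in all 4 lists at 11.2, 17.3, 23.1 and 19.8%, and at E14.5 it ranked higher in epithelium than in fibers.

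**Figure D4:**
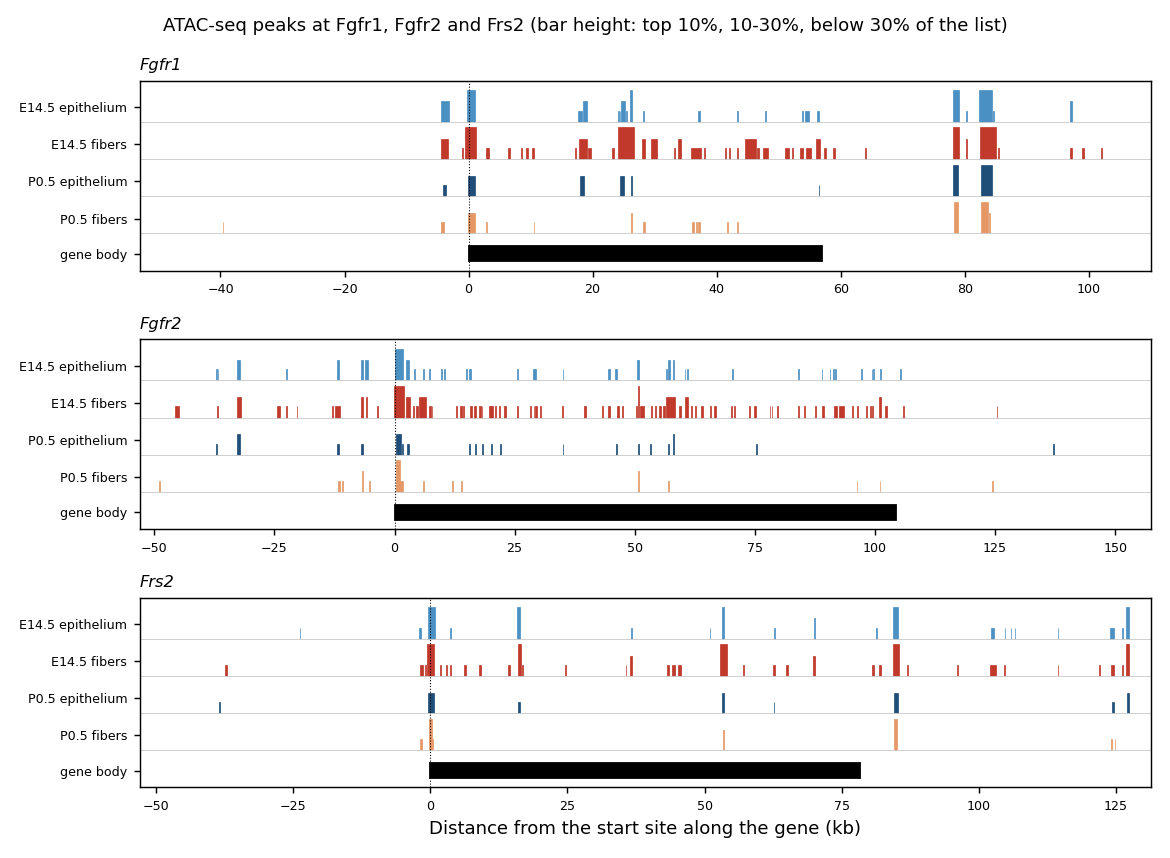
Peaks of the 4 lists around Fgfr1, Fgfr2 and Frs2 against the distance from the start site in kb, drawn as for the shorter genes. Embryonic fibers (red) have the most peaks at each gene in these full lists, 40 at Fgfr1, 78 at Fgfr2 and 35 at Frs2, and the P0.5 lists have 7 to 20 at each. With equal numbers they keep the most at Fgfr1 (19) and Frs2 (17), but Fgfr2 has 20 in every list except newborn fibers (12).

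Which lists called a region was compared next. Of the 319 regions, 189 (59.2%) were called in 1 list and 40 (12.5%) in all 4, against 59.5% and 10.9% of all 185271 merged regions. The lone list was embryonic fibers for 135 of the 319 (42.3%, against 29.3% of all regions) and newborn fibers for 18 (5.64%, against 12.6%). A further 17 (5.33%) were called in fibers of both stages and in no epithelium, against 2.43% of all regions. Of these 17, 13 lay at Fgfr3 or Fgfrl1, which held 50 and 44 of the 319 regions. The 40 regions open in all 4 lists included 10 regions at promoters of other genes and 6 at promoters of the 7 genes, and 11 of the 40 lay at Fgfr3. With equal numbers embryonic fibers were the lone list for 25 of 160 regions (15.6%, against 12.5% of all), and 7 (4.38%, against 1.87%) were called in fibers of both stages only. Newborn fibers were then the lone list for 29 (18.1%, against 23.1%), and 38 (23.8%, against 16.4%) were called in all 4 lists.

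At E14.5, 158 of the 293 regions called in either tissue were called in fibers and not in epithelium, a share of 53.9% (Wilson 95% interval 48.2 to 59.5%), where the background of all merged regions was 40.1%. In the other direction 31 of 293, or 10.6% (7.55 to 14.6%), were called in epithelium only, with a background of 19.7%. These intervals cover counting error only, the regions of a window share their neighbourhood and libraries, and the share above background came with the longest of the lists. With the same number of peaks in each list, the embryonic fiber share was 30.8% (23.1 to 39.6%), where all regions gave 24.8%, inside that interval. When all peaks tied at the cut were kept it was 33.6% (25.9 to 42.3%) against 25.1%, outside it. The epithelial share stayed below its background, at 10.3% (5.96 to 17.1%) against 20.6%. At P0.5 the fiber share was at the background, 46 of 117 or 39.3% (30.9 to 48.4%) against 39.7%, and the epithelial share was 28 of 117, 23.9% (17.1 to 32.4%), against 35.2%. The latter background fell inside the interval with 25 kb windows (25.3%, 17.2 to 35.6%), without promoters of other genes (26.7%, 19.1 to 35.8%) and when 50% of a region had to be covered (39.1% against 41.1%).

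In epithelium, 78 of 149 regions, 52.3% (44.4 to 60.2%), were called at E14.5 and not at P0.5, against 49.7% of all regions, and 14, or 9.40% (5.68 to 15.2%), at P0.5 and not at E14.5, against 11.2%. In fibers, 193 of 282, 68.4% (62.8 to 73.6%), were called at E14.5 only, against 62.6%, and 20, or 7.09% (4.64 to 10.7%), at P0.5 only, against 17.6%. The background lay inside both epithelial intervals and outside both fiber ones in the full lists, except that with 100 kb windows the fiber share of E14.5 only was 67.5% (62.46 to 72.2%), which holds the 62.55% of all regions. With equal numbers the fiber share of E14.5 only was at the background, 40.0% (32.1 to 48.4%) against 40.5%, and that of P0.5 only was below it, 22.2% (16.03 to 29.9%) against 33.0%. At a q value under 0.001 the background lay inside both fiber intervals, with 76.0% against 74.3% and 3.43% against 6.68%.

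**Figure D5:**
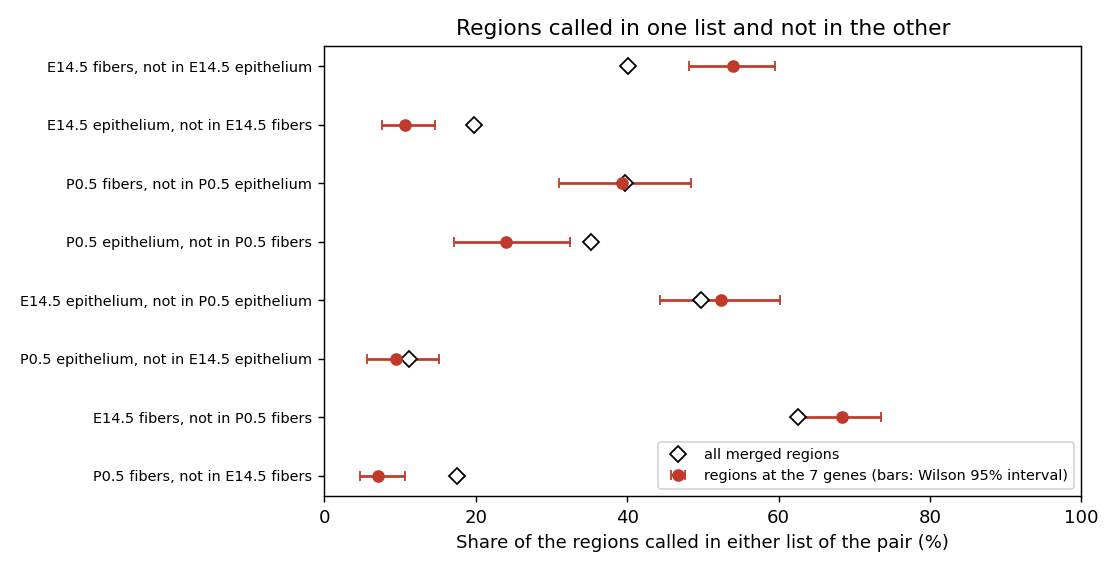
Share of the regions called in either list of a pair that were called in the first list and not in the second (percent), for regions at the 7 genes (red, with Wilson 95% intervals for counting error) and for all merged regions (open diamonds). The largest distance is in the first row, 53.9% against 40.1%, and in the third row, 39.3% against 39.7%, the diamond lies inside the interval.

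By gene, in the full lists, regions called in embryonic fibers and not in embryonic epithelium were 27 of 42 at Fgfrl1, 25 of 40 at Fgfr1, 51 of 86 at Fgfr2, 26 of 48 at Fgfr3, 20 of 40 at Frs2, 6 of 16 at Fgfr4 and 3 of 21 at Lctl, where all regions gave 40.1%. That background lay inside the Wilson intervals of Frs2 (35.2 to 64.8%) and Fgfr4 (18.5 to 61.4%), above that of Lctl (4.98 to 34.6%) and below those of the other genes, at Fgfr3 by little (40.3 to 67.4%). Differences between the genes were not tested. Regions called in embryonic epithelium only, 19.7% of all regions, were 7 of 21 at Lctl (17.2 to 54.6%, which holds the background), and Fgfr1 had 0 of 40 of that kind, which allows a share of up to 8.76% by its Wilson interval. Of the regions called in either fiber list, those of E14.5 only were 69 of 83 at Fgfr2 (73.7 to 89.7%) and 30 of 36 at Frs2 (68.1 to 92.1%), both above the 62.6% of all regions. They were 24 of 48 at Fgfr3 (36.4 to 63.6%) and 23 of 41 at Fgfrl1 (41.04 to 70.1%), whose intervals hold it. At Fgfr3 and Fgfrl1 the fibers of P0.5 also held more peaks than the epithelium of P0.5 (40 against 26, and 33 against 10), and at Fgfr2 and Frs2 fewer (15 against 20, and 7 against 8), in the same directions with equal numbers and at a q value under 0.001. The median protein-coding gene had 3.55 peaks per 100 kb in newborn fibers and 3.57 in newborn epithelium. At a q value under 0.001 newborn fibers kept 48.9% of all peaks and newborn epithelium 86.7%. Lower fiber counts at that setting therefore say little of Fgfr2 and Frs2.

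Regions at the 7 genes called in both members of a pair were placed by rank. At E14.5, 77 of 104 such regions stood nearer the top in fibers, with a median ratio of 1.36, against 65.5% and 1.21 over 61347 regions. At P0.5 it was 30 of 43, with a median of 1.21, against 56.2% and 1.11. With equal numbers the counts were 43 of 69 at E14.5, against 51.6% of all regions, and 29 of 42 at P0.5, against 52.4%, and at a q value under 0.001 the P0.5 count was 12 of 29, against 30.2%. No region within the top 10% of either tissue's list at E14.5 was without a call in the other tissue, for 22 regions of fibers and 19 of epithelium, where 0.640% and 0% of all such regions were, so the count says nothing particular of these genes. Of the 22, 2 had no call in newborn fibers, where 7.80% of all such regions had none.

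The letters of lens transcription factors were counted in the 200 bases around the summits. The Maf core occurred in 60 of the 319 regions, 18.8% (14.9 to 23.5%), against 23.1% of all merged regions. The Sox letters occurred in 10, or 3.13% (1.71 to 5.67%), against 7.04%. Tead letters were found in 39 (12.2%, against 13.7%), AP-1 letters in 18 (5.64%, against 6.58%), Pitx letters in 22 (6.90%, against 5.64%) and Ets letters in 12 (3.76%, against 4.71%). No motif was more frequent than its background beyond the interval, and Sox letters were less frequent. Of the 22 regions with the Pitx letters, 11 lay at Fgfr2, which held 94 of the regions. The median GC content of the summits was 52.5%, against 53% of all regions.

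The genes whose promoters followed the most similar course were found among the 12727 protein-coding genes with a promoter peak in all 4 lists, by the smallest of the largest differences in log10 percent rank over the lists. They were Acap3, Pusl1 and Heatr3 for Fgfr1, Rbm34, Notch2 and Bad for Fgfr2, Pan3, Gm30191 and Zfp593 for Fgfr3, and Bcas2, Fbxo2 and Fbxo44 for Frs2, none more than 1.14-fold away in any list. Acap3 and Pusl1 had identical values in all 4 lists, as did Gm30191 and Zfp593, and Fbxo2 and Fbxo44. Each of these pairs may rest on the same peaks, so its genes may not be separate cases. For Fgfrl1 the nearest genes were Rtca, Myh14 and Pask, 1.29 to 1.34-fold away. For Lctl they were Dpys, Ampd3 and Ccdc141, 1.10 to 1.19-fold away, where the newborn fiber value is that of the separate peak. Fgfr4 was left out for want of a call in newborn fibers.

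The rest of the FGF pathway was placed in the same way. Of 56 genes in 5 lists, 46 had a promoter peak in all 4 peak lists and 2, Fgf6 and the coreceptor Klb, in none. The 18 ligand genes had the weakest promoters, with 15, 15, 12 and 13 called in the order of lists and medians of 33.0, 25.6, 39.6 and 30.6%. Fgf18 was the strongest of them in embryonic fibers at 6.18%, Fgf1 stood at 22.1% and 22.4% in the embryonic tissues and Fgf2 at 48.8% and 25.6%. Fgfr4, at 31.3 and 18.8%, and Lctl, at 53.2 and 21.0%, lay within the range of the ligand genes at E14.5, which was 7.85 to 73.1% in epithelium and 6.18 to 51.3% in fibers.

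The adaptors of the receptor complex (Grb2, Gab1, Sos1, Ptpn11 and others) had a promoter peak for 9 of 9 genes in each list, with medians of 2.07, 1.67, 7.76 and 6.0%. The ERK cascade had 10, 10, 10 and 9 of 10, with medians of 2.18, 1.49, 7.92 and 4.02%, the missing one being Nras in newborn fibers. Frs2 stood behind the median of the ERK cascade in all 4 lists and behind that of the adaptors in 3, the exception being newborn fibers. Of the klotho and heparan sulfate genes 7 of 8 had peaks in every list. Ext1, which extends heparan sulfate chains, stood at 0.262, 0.131, 0.485 and 0.588%, whereas Kl, the founding klotho gene, stood at 24.8, 19.3, 55.4 and 41.8%, so that both klotho family genes with a call had weak promoters.

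The feedback inhibitors and Ets factors, which are known targets of FGF signaling, had 11 of 11 promoters called in each list, with medians of 7.41, 3.69, 11.1 and 10.8%. Etv5 had the strongest promoter of the 56 genes in both embryonic tissues, at 0.0750% in epithelium and 0.105% in fibers. At P0.5 it stood at 0.510% in epithelium, behind Ext1, and at 0.737% in fibers, behind Map2k1 and Ext1. Spry2 stood at 0.637, 0.602, 1.86 and 6.0% and Dusp6 at 2.07, 1.92, 8.90 and 12.0%. Of the 50 pathway genes called in both tissues at E14.5, 37 stood nearer the top in fibers, and of 46 at P0.5, 28 did, where 73.0% and 55.1% of all genes did. Both counts are near the share that the genome gives, and with equal numbers they were 28 of 47 and 27 of 46, against 54.5% and 51.3%.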

How the data were processed

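Accessible chromatin was measured by ATAC-seq in 8 libraries, 2 for each stage and tissue. Before deposit, the authors trimmed reads, mapped them to mm10, removed duplicates and joined both libraries of a group for peak calling by MACS2 (q value threshold 0.05, versions per the submitters' processing notes: Trim Galore 0.4.1, Bowtie2 2.3.3.1, SAMtools 1.2, Picard 2.1.1, MACS2 2.1). The deposited fold enrichment is the ratio of pooled reads at a peak's summit to the background used in peak calling, so its scale moves with depth and it was used here as a rank within each list. The −log10 q values of the authors, also at the summit, served for the stricter threshold, and the deposited −log10 p values and summit offsets only to order and locate peaks. In each list 1 fold value goes with 1 p value, so a planned ranking by p value is the same ranking and was left out as no alternative. Read counts are not part of the lists, and the depth behind a peak is unknown, and intervals are Wilson 95% intervals for counting error only. The 4 lists were assigned to groups by stage and tissue, and 0 files stayed unassigned.

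The peaks on the 21 chromosomes fitted the lengths of GRCm38, and gene positions came from its RefSeq annotation (45756 curated transcripts, of which the starts of 21000 protein-coding genes were used). Peaks at most 10 bp apart were merged across lists. A promoter peak lay within 2 kb of a curated start, and with several the best-ranked was taken. Percent ranks, merged regions and motif matches were computed in Python 3.11.15 (pandas 2.3.3, pysam 0.24.0, scipy 1.17.1), and the merging was checked against bedtools 2.31.1 and tested on simulated data. Promoter sequences are from the RefSeq table (GRCm38.p6), where 6 of the 7 genes matched, and the others from the GRCm38 genome.

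The genes, lists and markers were chosen with earlier results of these data known. Regions were described by a rule (the promoter and the 3 best-ranked other regions of each window, plus any called in 1 tissue of a stage within the top 10% of its list, of which there were none, and except 1 region that is not reported here), and for each gene the 3 genes with the most similar promoter ranks were named. Alternatives were a q value under 0.001, the same number of peaks (58592) in each list, other window, merging and promoter distances, and coverage of at least 50% of a region to count as called. Leaving out promoters of other genes, the alternatives for gene body coverage, the ratios between lists under each alternative and the treatment of ties at the cut to equal numbers (2392 to 4403 tied peaks left out in 3 lists, in order of chromosome) were added after seeing the data.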

Additional observations from a re-analysis of the deposited data

Results flagged for a closer look

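At 8 of the 27 regions described the tissue that stood nearer the top changed between stages, a difference between stages that was not tested. This count is that of the full lists. The same 8 turned in the 4 settings run for this count, among 12 with equal numbers (10 with tied peaks left out and 12 with them kept) and 15 at a q value under 0.001. Turns were not counted over all merged regions, so the 8 of 27 have no background. Of all merged regions called in both tissues, 65.5% ranked higher in fibers among embryos and 56.2% among newborns. Regions other than promoters were chosen by their best rank, for most of them that in embryonic fibers. The effect of this choice was not tested. The values given next are the percent rank in epithelium over that in fibers at E14.5. For 7 of the 8 regions fibers were ahead at E14.5 and epithelium at P0.5. The ratio was 1.70 at the Fgfr2 region 57.1 kb from the start and 1.61 at the promoter of Rpl4 and Zwilch, 56.3 kb from the start of Lctl. It was 1.67 at the Fgfr4 promoter, 2.53 at the Lctl promoter, 2.02 at the region 32.8 kb from the start of Fgfrl1, 1.67 at the region 50.2 kb upstream of Lctl and 1.30 at the Frs2 region 16.2 kb from the start, and at these 5 the turn rests on the lack of a call in newborn fibers. For Lctl this concerns the region at the embryonic summit, since the newborn fiber peak within 2 kb of its start had its summit at position -693, in a separate region. The eighth, 16.3 kb upstream of Fgfr3, went the other way, with a ratio of 0.836 at E14.5 and percent ranks of 16.1 in epithelium and 8.90 in fibers at P0.5.

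The Fgfr2 region 57.1 kb from the start stood at 95.7% in newborn fibers and the Rpl4 and Zwilch promoter at 80.3%, both among the weakest peaks of that list, in which fewer peaks passed a q value of 0.001 than in the others.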

How the results depend on the processing

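No paired analysis was possible because the deposited peak lists pool the 2 libraries of each group, and for the same reason no library could be left out. Of the values recomputed for the comparisons, 152 stayed within the limits set for a change, 63 moved and 9 turned direction, and of those of single genes 185 stayed, 119 moved and 12 turned. A ranking by p value is identical to that by fold enrichment and was not counted.

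Within the gene bodies alone the peaks numbered 72, 128, 35 and 52 (embryonic epithelium, embryonic fibers, newborn epithelium, newborn fibers). At a q value under 0.001 newborn fibers kept 73 peaks, and the median promoter ranks of the 7 genes were 6.32, 4.34, 15.1 and 11.1%. With equal numbers the embryonic windows held 95 and 105 peaks, and the median ranks at E14.5 were 9.49 and 7.39%. Peaks tied at that cut were then all left out or all kept, and the embryonic windows held 91 and 104 or 99 and 112 peaks, with median ranks of 10.01 and 7.64% or 9.08 and 7.10%, and 5.91% in newborn fibers without them. Of the promoter calls, that of Lctl in newborn fibers was lost at the stricter q value, and with equal numbers unless tied peaks were kept.

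When a region had to be covered to 50% to count, the shares called in 1 list only were 66.1% (embryonic fibers, not epithelium), 50 and 39.1% (newborn fibers and epithelium), 70.6% (epithelium of E14.5, not P0.5) and 86.0% (fibers of E14.5, not P0.5), where all regions gave 49.9, 48.8, 41.1, 63.3 and 74.8%. At a q value under 0.001 they were 47.3% for embryonic fibers, 25 and 38.8% for the newborn tissues, and 76.0 and 3.43% for fibers of E14.5 and P0.5 only, where all regions gave 34.8, 18.4, 51.1, 74.3 and 6.68%. With equal numbers they were 30.8% for embryonic fibers, 27.3 and 18.2% for epithelium of E14.5 and P0.5 only, and 40.0 and 22.2% for fibers, where all regions gave 24.8, 27.0, 22.4, 40.5 and 33.0%. In the same order they were 31.6, 25.8, 19.6, 39.6 and 22.4% with tied peaks left out, where all regions gave 25.2, 24.8, 24.0, 39.8 and 33.3%, and 33.6, 28.7, 17.8, 39.2 and 24.3% with tied peaks kept, where all regions gave 25.1, 28.7, 21.1, 39.7 and 34.5%.

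Ratios between lists moved as follows, and those that crossed 1 turned direction. The peaks in fibers of E14.5 over P0.5 went from 2.04 to 0.890 with equal numbers (0.881 and 0.868 with ties left out and kept), and those in epithelium from 1.92 to 1.03 (0.989 and 1.08). The whole lists held 123686 and 62922 peaks in fibers of E14.5 and P0.5, and 99921 and 58502 in epithelium. The peaks in newborn fibers over newborn epithelium went from 1.402 to 0.961 at a q value under 0.001. Of all peaks, 48.9% in newborn fibers and 86.7% in newborn epithelium passed that q value. The ratio of the median promoter rank between stages in fibers went from 1.63 to 0.786 with equal numbers (0.774 and 0.803) and to 2.54 at the stricter q value, in epithelium from 2.35 to 1.38 (1.31 and 1.44), and that between the newborn tissues from 2.29 to 1.36 at the stricter q value. The count of regions in newborn fibers only over that in newborn epithelium only went from 1.64 to 0.645 at the stricter q value. Over all merged regions these counts were 34073 and 30265, and 10244 and 28367 at the stricter q value. The ratio of such counts for embryonic fibers over embryonic epithelium went from 5.10 to 3 with equal numbers (3.23 with ties kept). For epithelium of E14.5 over P0.5 it went from 5.57 to 1.5 (1.32 and 1.61). For fibers of E14.5 over P0.5 it went from 9.65 to 1.8 (1.77 and 1.61), and to 22.1 at the stricter q value. Over all regions the counts were 61157 and 30123 for the embryonic tissues, and 18199 and 15170 with equal numbers. Between stages they were 51199 and 11560 in epithelium (19243 and 15948), and 92941 and 26076 in fibers (35218 and 28728). At the stricter q value the fiber counts were 78734 and 7074.

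For single genes, equal numbers turned the promoter ratio of fibers over epithelium at E14.5 for Fgfr2 (0.970) and Frs2 (0.925), that of E14.5 over P0.5 in epithelium for Fgfr4 (0.658), Fgfrl1 (0.815) and Lctl (0.783) and in fibers for Fgfr2 (0.966), Fgfr3 (0.633) and Frs2 (0.786), and the covered Fgfrl1 body of E14.5 over P0.5 in epithelium (0.992). The stricter q value turned the promoter ratio of newborn fibers over epithelium for Fgfr1 (0.679) and Fgfrl1 (0.659) and the covered Fgfr1 body (0.704). The cause of these changes was not tested beyond what the settings themselves remove.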
